A study of Mus musculus with 6 samples.

Results

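Class II molecules of the major histocompatibility complex (MHC) present peptides to CD4+ T cells, and 10 mouse genes of this pathway were followed in sorted regulatory T (Treg) cells with and without Rcor1. The genes were taken by name from the deposited expression table: the chains H2-Aa, H2-Ab1 and H2-Eb1, the H2-O chains H2-Oa and H2-Ob, the H2-DM chains H2-DMa, H2-DMb1 and H2-DMb2, the invariant chain Cd74 and the coactivator Ciita. All 10 were found among 35275 gene identifiers, and all 10 passed the filter on low values, which kept 11575 genes. No expression value was used to choose them, but they were chosen with earlier results of these data known.

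The Rcor1 deletion group (3 libraries) came from male Rcor1fl/flFoxp3YFPcre mice aged 6 to 8 weeks, and the control group (3 libraries) from male Foxp3YFPcre mice of the same age. Every animal thus carried the Foxp3-driven Cre with its yellow fluorescent protein (YFP), and the deletion depends on Foxp3 being active in a cell. A genotype label calls the control wild type. A CD4+ column enrichment preceded the sort for YFP. Rcor1 encodes CoREST1, a corepressor scaffold on which the demethylase Kdm1a and histone deacetylases meet, and the comparison asks what changes in Treg cells that lose it.

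Class II αβ dimers are loaded in endosomes, where a remnant of Cd74 holds the groove until the chaperone H2-DM exchanges it for a peptide. H2-O binds H2-DM and restrains it, and is known mainly from B cells, thymic epithelium and some dendritic cells. Ciita is recruited to the X and Y boxes of class II promoters and switches them on together. Mouse T cells are known for low class II expression, and B cells and dendritic cells for high expression.

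Class II promoters were read for the letters of the X and Y boxes. RefSeq promoters (GRCm38.p6, 250 bases before to 50 after a start) matched 7 of the 10 members. They were searched for GNAAC, a core of the X box, followed after 10 to 40 bases on the same strand by ATTGG, the core of the Y box, with letters chosen while the promoters were in view. The pair was present in 5 of the 7 genes, on the coding strand, and in 4.87% of all 32851 promoters on either strand. The windows below are shown to let H2-Ob and H2-Oa be read against the classical and H2-DM chains, with the cores in capitals.
H2-Ob, chr17:34238808-34238860, plus strand: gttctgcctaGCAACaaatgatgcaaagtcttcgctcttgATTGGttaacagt
H2-Oa, chr17:34092296-34092348, plus strand: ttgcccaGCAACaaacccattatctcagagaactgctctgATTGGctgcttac
H2-Aa, chr17:34287859-34287911, minus strand: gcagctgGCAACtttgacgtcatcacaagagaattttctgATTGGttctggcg
H2-Eb1, chr17:34305768-34305820, plus strand: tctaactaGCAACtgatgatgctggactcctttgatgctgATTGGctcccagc
H2-DMb1, chr17:34153090-34153142, plus strand: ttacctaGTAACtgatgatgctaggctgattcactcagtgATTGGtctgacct
H2-DMb2, chr17:34145119-34145171, plus strand: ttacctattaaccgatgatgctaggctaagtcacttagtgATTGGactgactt
The gap between the cores was 25 bases in H2-Ob, 27 in H2-Eb1 and 28 in H2-Oa, H2-Aa and H2-DMb1. H2-DMb2 held the Y core without GNAAC at that distance, and neither RefSeq promoter of H2-DMa held the pair. These matches describe letters in a window and say nothing of binding.

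The libraries held 18538581 to 22349455 fragments, recovered from the deposited FPKM values, which are fragment counts scaled for gene length and library depth. Rcor1 itself was at 12.5, 13.03 and 14.2 FPKM in deletion libraries 1, 2 and 3, against 16.1, 16.2 and 15.2 FPKM in control libraries 1, 2 and 3 (log2 fold change -0.24, adjusted p = 0.0562 by limma), and was lower in every deletion library. A value per gene covers all its exons, deleted or not, which makes this a weak check of the labels. Treg markers were high in every library, with Foxp3 at 99.9 to 106.1 FPKM in deletion and 88.0 to 106.1 FPKM in control libraries, Il2ra at 142 to 158 and 130 to 145 FPKM, and Cd4 at 233 to 242 and 225 to 243 FPKM. Of 10 Treg markers tested, Ikzf2 rose (62.5 ± 3.9 against 47.5 ± 5.9 FPKM) and Il2rb and Cd3g fell by limma, while voom called 0 higher and 3 lower, Tnfrsf4 being the third. Of all tested genes, 8.95% rose and 3.08% fell by limma, and 6.07% rose and 6.29% fell by voom. Transcripts of fat cells and epithelium stood apart, with 6 of 7 lower after deletion by limma and by voom, among them Cfd, Car3, Fabp4 and Adipoq. The summed level of these 7 genes was 5.46 to 6.50 FPKM in deletion and 52.1 to 65.7 FPKM in control libraries, and their part in the class II values was not tested. The sources used here give no preparation batch, so a batch that ran with the groups and the deletion cannot be told apart.

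Of the 10 class II genes, H2-Ob and H2-Oa rose and 0 fell, where 12.0% of all tested genes passed the test, 8.95% rising and 3.08% falling (limma on log2(FPKM + 1), Benjamini-Hochberg adjusted p under 0.05). At an unadjusted p under 0.05, 4 members were higher and 0 lower, where 24.6% of all tested genes were higher and 8.0% lower. On recovered fragments, limma voom called 1 higher and 0 lower, against 12.4% of all genes, 6.07% rising and 6.29% falling. With median-ratio scaling 1 member rose, against 10.3% of all genes called, 4.83% rising and 5.46% falling. The median log2 fold change was 0.13 over the members and 0.08 over all tested genes. The members' groups did not overlap for 3 of 10 genes, all higher after deletion, where 39.1% of all tested genes did not overlap, 29.3% higher and 9.79% lower in every deletion library. The number of members whose groups did not overlap is near that background, and the fold change of H2-Ob was the highest among the members.

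**Figure D1:**
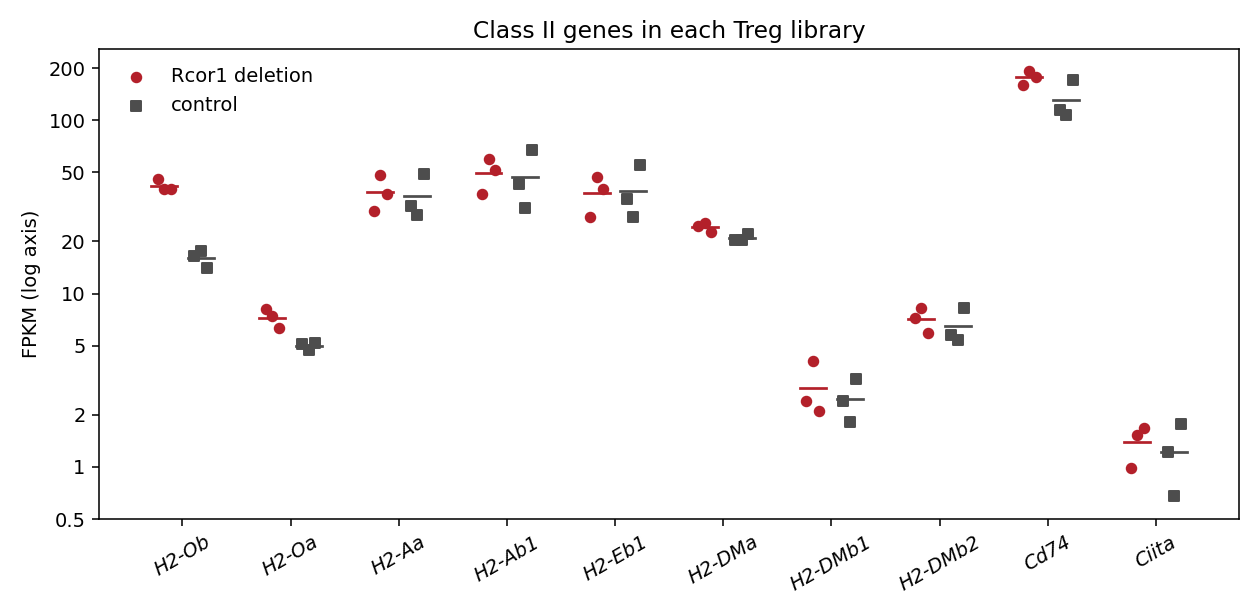
FPKM of the 10 class II genes on a log axis, with Rcor1 deletion libraries as red circles left of control libraries as grey squares, each point a library and each bar the group mean. The groups are well apart for H2-Ob, at 39.9 to 45.6 FPKM after deletion and 14.0 to 17.6 FPKM in control, and overlap for the H2-Aa, H2-Ab1 and H2-Eb1 chains.

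H2-Ob, which encodes the β chain of H2-O (ENSMUSG00000041538, GRCm38 chromosome 17, 34238903 to 34254414, plus strand), had the highest fold change of the 10. It was at 45.6, 39.9 and 40.4 FPKM in deletion libraries 1, 2 and 3, against 16.4, 17.6 and 14.0 FPKM in control libraries 1, 2 and 3. The lowest deletion library was above the highest control library by more than the whole range of either group. The group means were 42.0 ± 3.2 FPKM after deletion and 16.0 ± 1.8 FPKM in control (SD, n = 3 each), a log2 fold change of 1.34 (SE 0.095, adjusted p = 0.000894 by limma). Fragments numbered 2722, 2167 and 2182 in deletion and 903, 933 and 693 in control libraries, so counting error is small beside this difference. On fragments, voom gave a 2.47-fold difference with a 95% interval of 2.13 to 2.87. Across all genes, 0.579% rose with a log2 fold change of 1 or more. The rise passed the threshold under all 14 alternatives, with adjusted p-values from 0.000306 to 0.00986 by limma or voom.

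H2-Oa, which encodes the α chain that pairs with the H2-Ob product (ENSMUSG00000024334, chromosome 17, 34092340 to 34095234, plus strand), also rose, by less. It was at 8.11, 7.40 and 6.30 FPKM in deletion libraries 1, 2 and 3 and at 5.08, 4.70 and 5.17 FPKM in control libraries 1, 2 and 3. The groups did not overlap, with deletion library 3 nearest to the control range. The log2 fold change was 0.46 (SE 0.096, adjusted p = 0.0282 by limma), from means of 7.27 ± 0.91 FPKM after deletion and 4.98 ± 0.25 FPKM in control. This call held under 5 of 14 alternatives and was lost with voom (adjusted p = 0.0709), with median-ratio scaling (adjusted p = 0.0505) and in 7 other alternatives. Some H2-Oa exons overlap BC051537 on the other strand, which averaged 0.135 FPKM over the 6 libraries.

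The balance between the 2 H2-O chains was compared within each library. Per length, H2-Ob stood at 5.63, 5.4 and 6.41 times the level of H2-Oa in deletion libraries 1, 2 and 3. In control libraries 1, 2 and 3 the ratio was 3.23, 3.74 and 2.71. The ratios of the groups did not overlap (exact permutation p = 0.1, two-sided), and no smaller p is possible with 3 libraries on each side. This ratio is free of scaling between libraries and was chosen after the values were seen.

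The chains that form the peptide-binding dimers did not pass the test. H2-Aa (ENSMUSG00000036594, 34282744 to 34287823, minus strand), the α chain of the A dimer, was at 29.8, 48.3 and 37.7 FPKM in deletion libraries 1, 2 and 3, against 32.0, 28.3 and 49.2 FPKM in control libraries 1, 2 and 3. H2-Ab1 (ENSMUSG00000073421, 34257689 to 34269419, plus strand), its β chain, was at 37.3, 59.9 and 51.4 FPKM in deletion and 42.7, 31.2 and 67.7 FPKM in control libraries. The groups overlapped for both chains, and the deletion range of H2-Ab1 lay inside its control range. H2-Eb1 (ENSMUSG00000060586, 34305867 to 34316674, plus strand), the β chain of the E dimer, was at 27.5, 46.9 and 40.1 FPKM in deletion and 35.1, 27.5 and 55.3 FPKM in control libraries. Log2 fold changes were 0.09 (95% interval -0.47 to 0.65) for H2-Aa, 0.11 (-0.56 to 0.79) for H2-Ab1 and -0.01 (-0.68 to 0.65) for H2-Eb1, with adjusted p-values of 0.811, 0.808 and 0.979 by limma. None of these intervals reaches the log2 fold change of H2-Ob. The locus gene H2-Eb2 was at 1.28 ± 0.43 and 1.13 ± 0.36 FPKM in deletion and control libraries, and H2-Ea-ps, the E α gene in the form that some strains cannot express, was listed at 0 in every library.

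These 3 chains varied together from library to library. In both groups they shared 1 order, with deletion library 1 lowest and 2 highest, and control library 2 lowest and 3 highest. The highest control library was at 1.74 times the lowest for H2-Aa, 2.17 times for H2-Ab1 and 2.01 times for H2-Eb1, and the matching values in deletion libraries were 1.62, 1.61 and 1.71. H2-Ob spread less, with 1.14 in deletion and 1.25 in control libraries, and in the opposite order in control, where library 3 was lowest. Of the 10 members, 9 were lowest in control library 2 and highest in control library 3, H2-Ob being the exception. In deletion libraries 7 were highest in library 2 and 5 lowest in library 1.

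**Figure D2:**
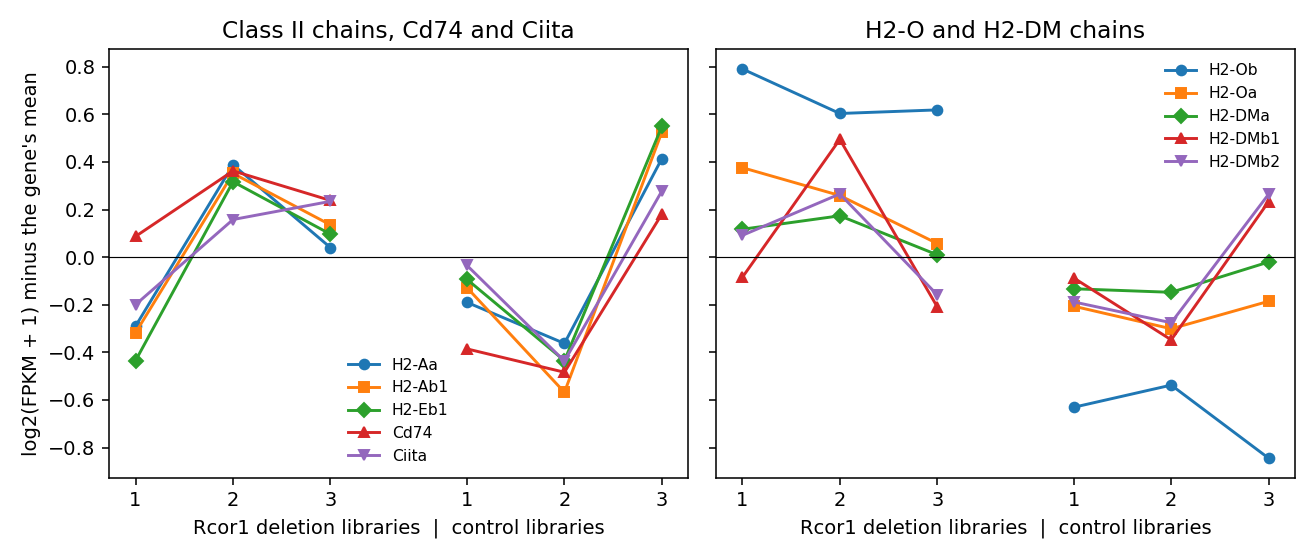
Log2(FPKM + 1) of each class II gene minus its mean over the 6 libraries, for deletion libraries 1 to 3 left of control libraries 1 to 3; lines only help to follow a gene, since replicates have no order. In the left panel H2-Aa, H2-Ab1 and H2-Eb1 trace 1 shape that crosses 0 in both groups, and in the right panel H2-Ob lies above 0 in every deletion library and below 0 in every control library.

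Cd74, the invariant chain that guides class II dimers to endosomes (ENSMUSG00000024610, chromosome 18, 60803848 to 60812652, plus strand), was the most abundant member. It was at 159, 193 and 177 FPKM in deletion libraries 1, 2 and 3, against 115, 107 and 170 FPKM in control libraries 1, 2 and 3. Control library 3 lay among the deletion libraries, while the other two control libraries lay below all of them. The log2 fold change of 0.46 (95% interval 0.05 to 0.87) did not pass (adjusted p = 0.12 by limma). Without control library 3 it did pass (log2 fold change 0.66, adjusted p = 0.0253), the only 1 of 14 alternatives where Cd74 was called.

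The H2-DM chains, which form the peptide exchanger, did not pass either. H2-DMa (ENSMUSG00000037649, chromosome 17, 34119541 to 34139101, plus strand), the α chain, was at 24.5, 25.5 and 22.7 FPKM in deletion libraries and 20.5, 20.2 and 22.2 FPKM in control libraries, in the order of libraries 1, 2 and 3. Its groups did not overlap, but by a narrow margin, and its log2 fold change of 0.20 (SE 0.067, adjusted p = 0.0914 by limma) shrank to 0.12 with median-ratio scaling. H2-DMa shares 360 exon bases with the antisense gene Brd2, which averaged 98.6 FPKM, and the sources used here do not say whether counting used strand. Brd2 was itself higher in every deletion library (log2 fold change 0.16, adjusted p = 0.0836 by limma). Its part in the H2-DMa values was not tested. H2-DMb1 (ENSMUSG00000079547, 34153072 to 34160230) and H2-DMb2 (ENSMUSG00000037548, 34143307 to 34151555), copies of the β chain whose transcripts are 94.6% identical over the aligned bases, are uncertain singly because the counting could divide fragments between them. H2-DMb1 averaged 2.86 ± 1.1 and 2.48 ± 0.71 FPKM, and H2-DMb2 7.16 ± 1.2 and 6.49 ± 1.6 FPKM, in deletion and control libraries, with adjusted p-values of 0.704 and 0.613 by limma. Summed, the 3 H2-DM genes stood at 34.1, 37.9 and 30.7 FPKM in deletion and 28.6, 27.4 and 33.7 FPKM in control libraries, which overlap.

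Ciita (ENSMUSG00000022504, chromosome 16, 10480059 to 10528418, plus strand), the coactivator on which class II transcription depends, was the lowest member. It was at 0.979, 1.54 and 1.67 FPKM in deletion libraries 1, 2 and 3 and 1.22, 0.679 and 1.76 FPKM in control libraries 1, 2 and 3, from 71 to 178 fragments per library. Its groups overlapped and its log2 fold change was 0.13 (95% interval -0.36 to 0.62, adjusted p = 0.696 by limma). Like the classical chains it was lowest in control library 2 and highest in control library 3. Some Ciita exons overlap Dexi on the other strand, which averaged 8.84 FPKM.

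**Figure D3:**
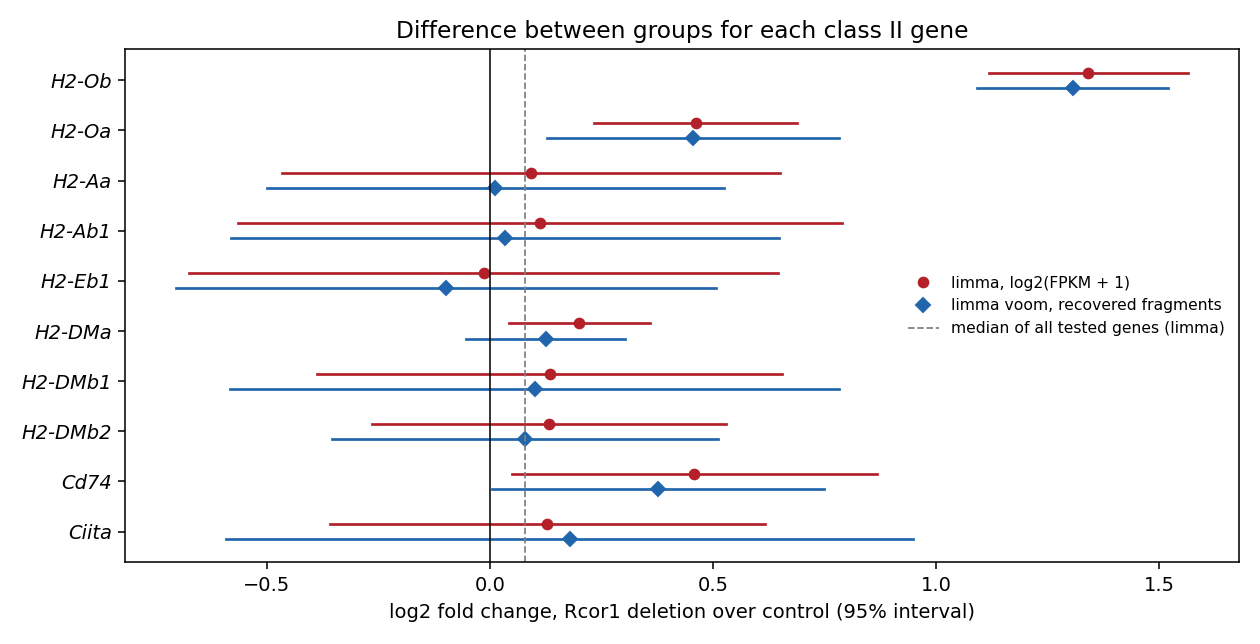
Log2 fold change of each class II gene, Rcor1 deletion over control, with 95% intervals from limma on log2(FPKM + 1) (red circles) and from limma voom on recovered fragments (blue diamonds); the dashed line is the median of all tested genes. H2-Ob lies at 1.34 and 1.31, apart from the other genes, while H2-Aa, H2-Ab1 and H2-Eb1 have wide intervals around 0.

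Genes that act on class II promoters changed in single cases. Of 10 promoter factors, Rfx5, a subunit of the complex that binds the X box, rose to 9.04 ± 0.95 FPKM after deletion, against 6.83 ± 0.52 FPKM in control (log2 fold change 0.36, adjusted p = 0.0493 by limma). The call was lost with median-ratio scaling, with voom and without any library other than control library 2. Its partners Rfxap (13.4 and 13.3 FPKM in deletion and control) and Rfxank (5.0 and 4.74 FPKM) did not pass, with adjusted p-values of 0.874 and 0.607 by limma. Of 13 regulators of Ciita, Zbtb32, a zinc finger repressor, rose (11.1 ± 0.45 against 8.19 ± 1.2 FPKM, adjusted p = 0.0478 by limma). That call was lost with median-ratio scaling, with voom and without any library other than control library 3. Voom called Irf2, an interferon regulatory factor, lower (42.7 ± 2.1 against 48.8 ± 1.8 FPKM, adjusted p = 0.0295), which limma did not (adjusted p = 0.0739). Both counts of rises are near the 8.95% of all tested genes that rose.

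Genes that make or handle peptides showed as little. Of 11 endolysosomal genes, Lgmn, the asparagine endopeptidase, rose (16.0 ± 2.1 against 11.6 ± 0.69 FPKM, adjusted p = 0.0401 by limma), where 8.95% of all tested genes rose. The call was lost with median-ratio scaling, with voom, and without deletion library 2 or 3 or control library 1 or 3. Voom called Ctsd lower (adjusted p = 0.0454), where 6.29% of all tested genes fell. The cathepsin S gene Ctss was at 173 to 186 FPKM in deletion and 176 to 192 FPKM in control libraries. Of 5 tested genes for class II turnover and tetraspanin partners, 0 passed with limma, 0 with voom, and 0 were below an unadjusted p of 0.05; Cd37 (130 ± 8.3 and 117 ± 7.0 FPKM in deletion and control) and Cd83 (28.5 ± 3.5 and 32.6 ± 1.8 FPKM) had the smallest p. March1 and March8 of this list were under the filter and not tested. March1 was at 0.589, 0.754 and 0.757 FPKM in deletion and 0.174, 0.313 and 0.465 FPKM in control libraries, while the groups overlapped for March8. The class II receptors Cd4 and Lag3 likewise gave 0 of 2 by limma, by voom and at an unadjusted p under 0.05.

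Of 14 class I genes, 0 rose and 2 fell by limma (voom: 0 and 4; unadjusted p under 0.05: 3 higher and 4 lower). Of all tested genes, 8.95% rose and 3.08% fell by limma, and 6.07% rose and 6.29% fell by voom. At an unadjusted p under 0.05, 24.6% were higher and 8.0% lower. The class I genes that fell by limma were Calr (271 ± 9.4 against 330.5 ± 21 FPKM) and Pdia3 (180 ± 4.6 against 214 ± 13 FPKM), chaperones of class I loading in the endoplasmic reticulum. Both calls were lost with no filter and without any library other than control library 2. Of 15 interferon gamma response genes, the adhesion gene Icam1 rose (25.7 ± 1.5 against 19.4 ± 0.64 FPKM, adjusted p = 0.0135) and so did Cd274 (21.9 ± 0.83 against 17 ± 1.9 FPKM, adjusted p = 0.0415), which encodes PD-L1. Icam1 lost its call without deletion library 2 (adjusted p = 0.055), deletion library 3 (0.0634) or control library 1 (0.0603), and Cd274 was not called with median-ratio scaling or voom. Voom called Gbp2 lower (adjusted p = 0.0352). Median log2 fold changes were -0.01 for the class I genes and 0.16 for the interferon list, against 0.08 for all tested genes.

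The genes around H2-Ob on chromosome 17 that are not members did not pass the test. Between H2-Oa and H2-Eb2, an interval of 249 kb, 15 genes were tested, of which 7 are not members, and of these 0 rose and 0 fell by limma or voom. At an unadjusted p under 0.05, 4 of the 7 were higher and 0 lower, where 24.6% of all tested genes were higher and 8.0% lower. Higher in every deletion library were 5 of these 7, where 29.3% of all tested genes were. The predicted gene Gm15821 had the highest log2 fold change of the 7, 0.42 (2.26 ± 0.31 against 1.43 ± 0.16 FPKM, adjusted p = 0.0509 by limma). Gm15821 lies within the bounds of Tap2 on the other strand and had 30 to 62 fragments per library. The part of Tap2 fragments in its value was not tested. Others of the 5 were Tap1 (129 ± 7.5 against 115 ± 8.2 FPKM), Tap2 (61.5 ± 1.4 against 55.5 ± 2.9 FPKM) and Psmb8 (94.6 ± 0.95 against 81.5 ± 5.8 FPKM), which carry or cut peptides for class I. These 3 had log2 fold changes of 0.16, 0.15 and 0.22 and adjusted p-values of 0.172, 0.12 and 0.0601 by limma.

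Some B cell markers moved with H2-Ob. Of 23 listed B cell markers 21 were in the table and 16 were tested, of which 4 rose and 0 fell by limma and by voom, where 8.95% of all tested genes rose by limma and 6.07% by voom. At an unadjusted p under 0.05, 6 were higher and 0 lower, where 24.6% of all tested genes were higher. Of the 16 markers, 8 were higher and 0 lower in every deletion library, where 29.3% of all tested genes were higher. All 16 had a positive log2 fold change, as did 65.3% of all tested genes, and the median was 0.51 against 0.08 for all tested genes. Fcrl1 rose (7.98 ± 0.096 against 3.21 ± 0.18 FPKM, adjusted p = 0.000526), as did Cd72 (16.9 ± 1.2 against 7.58 ± 1.0 FPKM), Cd22 (5.17 ± 0.23 against 2.04 ± 0.54 FPKM) and Ighm (1894 ± 229 against 800.4 ± 392 FPKM, adjusted p = 0.0437). These encode B cell surface proteins and the constant region of IgM, and Ighm lost its call without any library other than control library 2. In bulk libraries, more cells of a type and more RNA of these genes per cell cannot be told apart.

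The defining B cell markers followed H2-Ob only in part. Ms4a1, which encodes CD20, was at 4.10, 2.34 and 3.42 FPKM in deletion and 0.631, 1.47 and 3.46 FPKM in control libraries, in the order of libraries 1, 2 and 3. Cd79a and Cd79b, the signalling chains of the B cell receptor, averaged 15.4 and 15.8 FPKM after deletion and 10.7 and 13.9 FPKM in control, and Pax5, which was under the filter, 1.09 and 1.06 FPKM. Of these 4, Cd79a alone was higher in every deletion library (14.41 to 17.07 against 5.459 to 14.18 FPKM), where 29.3% of all tested genes were. None of the 3 tested markers among these 4 passed, with adjusted p-values from 0.223 to 0.344 by limma. Their summed level was 39.5, 32.7 and 34.5 FPKM in deletion libraries and 19.2, 27.1 and 36.2 FPKM in control libraries. Control library 3 lay within the deletion range in this sum and held the least H2-Ob of all 6 libraries. Relative to this sum, H2-Ob stood at 1.15, 1.22 and 1.17 in deletion and 0.854, 0.647 and 0.386 in control libraries (exact permutation p = 0.1, two-sided, the smallest possible here).

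**Figure D4:**
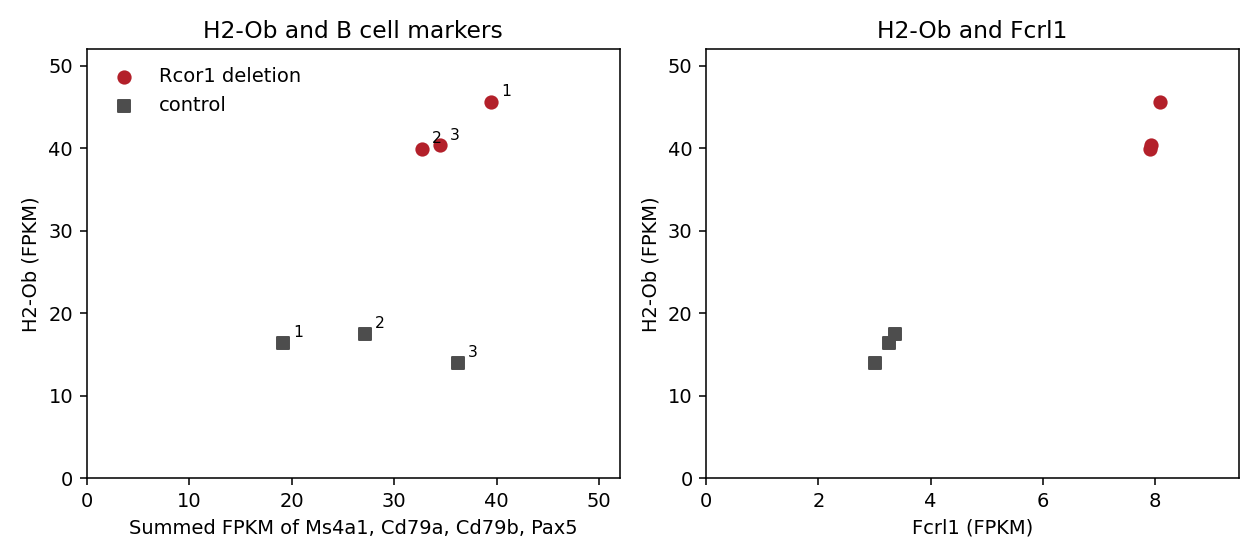
H2-Ob FPKM against the summed FPKM of Ms4a1, Cd79a, Cd79b and Pax5 (left, with library numbers) and against Fcrl1 FPKM (right), with deletion libraries as red circles and control libraries as grey squares. On the left, control library 3 has a marker sum of 36.2 FPKM, within the deletion range of 32.7 to 39.5, with H2-Ob at 14.0 FPKM; on the right, H2-Ob and Fcrl1 separate the groups alike.

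Other denominators were set beside this one. Over the whole B cell list, whose sum is mostly Ighm (1790.0 to 2238 FPKM in deletion and 511 to 1307 FPKM in control libraries), the ratio of H2-Ob overlapped between the groups (log2 difference 0.11, exact permutation p = 0.8, two-sided). Against Fcrl1 alone it was 5.64, 5.05 and 5.09 in deletion and 5.04, 5.21 and 4.65 in control libraries, which also overlap. Against Cd79a alone the ratio of H2-Ob was 2.67, 2.74 and 2.80 in deletion libraries. In control libraries it was 3.00, 1.41 and 0.987, with control library 1 above every deletion library (exact permutation p = 0.4, two-sided). The part of B cell RNA in the level of H2-Ob was not tested. For each of the 10 members, the mean log2 ratio in control was subtracted from that in deletion. The median of these differences was -1.09 for the whole list, lower after deletion, and -0.22 for the 4 markers.

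Dendritic cells and macrophages, which are rich in class II, had markers above 0 in these libraries, with no call between the groups. Among 7 tested dendritic cell markers and 9 tested macrophage markers, limma called 0, voom called 0, and an unadjusted p under 0.05 was reached by 0. Itgax (1.45 ± 0.57 and 1.22 ± 0.28 FPKM in deletion and control) and Flt3 (1.15 ± 0.41 and 1.09 ± 0.26 FPKM) were low, and Zbtb46, Xcr1 and Siglech were under 1 FPKM in every library. No marker of either list was at 0 in all libraries. The dendritic sum was 27.5, 56.0 and 45.5 FPKM in deletion and 62.2, 40.1 and 56.1 FPKM in control libraries. In deletion libraries it had the order of the classical class II chains, and in control libraries it shared their lowest library, 2. Fscn1 was the largest part of this sum in every library. It was at 8.23, 19.56 and 19.85 FPKM in deletion and 28.12, 16.71 and 22.3 FPKM in control libraries.

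Macrophage markers varied widely between libraries. Lyz2, the lysozyme of myeloid cells, was at 1.80, 63.5 and 16.3 FPKM in deletion and 2.87, 15.6 and 34.3 FPKM in control libraries. Csf1r averaged 3.61 ± 2.5 FPKM after deletion and 2.48 ± 0.75 FPKM in control, and Adgre1 1.35 ± 1.0 and 1.17 ± 0.51 FPKM. The summed macrophage level of 14.9, 107 and 71.9 FPKM in deletion libraries had the order of the classical chains there, and that of 21.1, 48.2 and 66.7 FPKM in control libraries shared their highest library, 3. The part of these cells in the spread of H2-Aa, H2-Ab1 and H2-Eb1 was not tested.

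Plasma cell and cytotoxic markers gave no call. Of 7 plasma cell markers limma and voom called 0, and 4 were higher at an unadjusted p under 0.05, where 24.6% of all tested genes were higher. Sdc1 was at 3.06 ± 0.20 and 1.94 ± 0.73 FPKM and Jchain at 448 ± 46 and 235 ± 153 FPKM in deletion and control libraries. Of 6 CD8 T and natural killer cell markers limma and voom called 0 and 1, Nkg7, had an unadjusted p under 0.05.

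The genes most like the class II set were found by the root mean square difference between mean-centred log2(FPKM + 1) profiles over the 6 libraries, among 10180 named genes. The 5 closest to the members' mean were Ctla2a (0.051), Fam234a (0.063), Lgals1 (0.064), Plek (0.067) and Mrgpre (0.068). Ctla2a, which encodes an inhibitor of cathepsin L-like proteases, was at 9.29, 12.8 and 10.7 FPKM in deletion and 8.30, 6.99 and 11.6 FPKM in control libraries. Lgals1, the galectin 1 gene, was at 309, 402 and 317 FPKM in deletion and 256, 222 and 303 FPKM in control libraries. Both were lowest in control library 2 and highest, within control, in library 3, as most class II genes were. They were chosen for a like profile, so this shared order is no separate result.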

How the data were processed

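The authors deposited FPKM, fragment counts scaled for gene length and library depth, with a column for each of 6 libraries, 3 per group; 0 columns were left unused. The aligner STAR and the build mm10 come from the submitters' processing notes, while counting tool, strand setting and annotation release are not stated there. Symbols, positions and lengths came from GENCODE M21 on GRCm38, the assembly mm10 names. Totals and fragments were recovered from the values: all 21898 genes above 0 gave whole fragments within 0.01, 70.0% with the longest annotated transcript and the rest with a length solved from the values. Depth was 18538581 to 22349455 fragments per library.

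Genes reaching 1 FPKM in 3 or more of 6 libraries were tested with limma (version 3.58.1, R 4.3.3, trended variance) on log2(FPKM + 1), a scale that understates changes of low genes. Fold changes are deletion over control, and p-values are two-sided and Benjamini-Hochberg adjusted over all tested genes (threshold 0.05). The code was tested on simulated fragments. Replicates are described as independent biological ones in the series' design.

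Members and lists were chosen with earlier results of these data known. The rule for named genes took all members, Rcor1, the leading markers of each list, up to 4 called genes per list (2 where none passed) and the 5 genes nearest to the members' mean profile. Of the leading B cell markers, 1 is not reported here and stays out of the lists and sums, so the planned sum of the first-named markers was not run as planned. Genes named outside that rule were chosen after their values were seen. They were Ctss, Irf2, Ctsd, Gbp2, Tnfrsf4, Gm15821, Tap1, Tap2, Psmb8, Brd2, BC051537, Dexi, Fscn1 and the genes listed like H2-Ob or the classical chains. Alternatives were leaving out each library, the replicate block, pseudocounts of 0.1 and 5, other filters, 2 scalings, and limma voom on recovered fragments.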

Additional observations from a re-analysis of the deposited data

How the results depend on the processing

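The rise of H2-Ob kept its call under all 14 alternatives, with log2 fold changes of 1.16 to 1.41. H2-Oa kept its direction under all 14 (0.29 to 0.55) but its call under 5. The count of members that rose, 2, was therefore 1 with the replicate block, no filter, median-ratio scaling, quantile normalization and voom on recovered fragments, and 1 to 2 with each library left out. It was 1 without control library 1 or deletion library 1 or 2, and without control library 3 it was 2 with Cd74 in place of H2-Oa. No member fell under any setting.

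Among the 8 members that did not pass, H2-DMa, H2-DMb2 and Cd74 kept a positive sign under every alternative, while the other 5 changed sign with single libraries left out. With each library left out, log2 fold changes ran from -0.079 to 0.32 for H2-Aa, -0.14 to 0.40 for H2-Ab1, -0.23 to 0.26 for H2-Eb1, -0.080 to 0.28 for H2-DMb1 and -0.057 to 0.30 for Ciita. H2-Aa, H2-Ab1 and H2-DMb1 turned negative without deletion library 2 and, with Ciita, without control library 2 (-0.07, -0.14, -0.0059 and -0.06), and H2-Eb1 turned positive without deletion library 1 (0.20) and without control library 3 (0.26). The cause was not tested.

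Over all genes, 1392 calls became 404 with the replicate block, 844 with no filter and 868 with quantile normalization, and 279 to 1862 with each library left out. Of the calls, 74.4% were higher after deletion, against 46.9% with median-ratio scaling, 54.5% with quantile normalization and 49.1% with voom. The companion lists' 20 calls became 11 with the replicate block, 11 with no filter and 5 to 21 with a library left out, 5 without control library 1.

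The log2 ratio to the B cell list differed between the groups by a median of -1.09 over the members. This median difference was -0.22 with 4 markers, a denominator chosen after the data were seen. With a library left out it ran from -1.61 to -0.75 for the B cell list, and was -1.61 without control library 2. Replicate numbers did not pair the libraries: same-numbered deviations correlated at 0.211, -0.135 and -0.162, so a call lost under the block is not a weaker effect. With 3 libraries a group, differences of the size of the intervals given for the classical chains could not be resolved. Ciita had the lowest FPKM of the members, and H2-DMb1 rests on the fewest fragments, 51 to 116 per library. The filter at 5 FPKM gave no value for Ciita and H2-DMb1.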

Other observations

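Genes whose profile was nearest to that of H2-Ob alone, a comparison added after its values were seen, were found by the same root mean square difference. The closest were Kif1b (0.097), Nrn1 (0.108), Gfi1 (0.126), Arhgef16 (0.128) and Rbpms (0.135), followed by Fcrl1 (0.146). Arhgef16 was at 1.52, 1.74 and 1.56 FPKM in deletion and 0.0471, 0.061 and 0.0523 FPKM in control libraries. Rbpms, an RNA-binding protein gene, was at 3.23, 2.49 and 2.72 FPKM in deletion and 0.514, 0.691 and 0.699 FPKM in control libraries. Arhgef16 and Rbpms passed the filter only through the deletion libraries, and log2(FPKM + 1) understates changes of low genes. Their nearness to H2-Ob therefore holds on that scale and was not tested on another.

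The genes nearest to the mean of H2-Aa, H2-Ab1 and H2-Eb1 were Tnfrsf8 (0.11), Hist1h2bb (0.12), Clec12a (0.128), Lockd (0.133) and Rcc1 (0.145). Tnfrsf8, which encodes CD30, was at 6.91, 9.89 and 8.32 FPKM in deletion and 8.27, 5.23 and 12.7 FPKM in control libraries. That is the order of the class II chains in both groups, which a choice by likeness of profile favours. Rcc1, a nucleotide exchange factor gene of the cell cycle, was at 21.7, 27.3 and 22.7 FPKM in deletion and 23.8, 17.6 and 31.7 FPKM in control libraries.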
